A study of Mus musculus with 18 samples.

Results

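The enzymes that make and break cyclic nucleotides were compared in the lateral septum (LS) of virgin, lactating maternal and pups removed mice. They are the adenylyl cyclases (Adcy), the guanylyl cyclases (Gucy), the natriuretic peptide receptors Npr1 to Npr3 and the cyclic nucleotide phosphodiesterases (Pde). Genes were taken by symbol from the probesets annotated to 1 gene only, and the brightest probeset by mean over all arrays stood for a gene. The rule gave 43 genes of the 19938 that have a probeset of their own. Adcy5, Pde1b and Pde10a were left out by the rule. All but Pde4d, which has 3, have a single probeset of this kind.

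RNA was measured on 18 Mouse Gene 1.0 ST arrays (Affymetrix), 6 per group, chosen from the 8 females collected for each group. All females were outbred hsd:ICR mice of about 70 days, with no earlier litter, and all lived alone after an initial period in company. Lactating maternal and pups removed females had spent 2 weeks with a breeder male, gave birth, and had litters held at 11 pups. Maternal females kept their pups until dissection on postpartum Day 7, whereas pups removed females lost theirs on postpartum Day 2 and were dissected on Day 7. Virgin females had spent the 2 weeks with other females and were in diestrus, as were the pups removed females. Virgin and maternal females thus differ in mating, pregnancy, birth and suckling together. Values are log2 signals of whole dissected tissue, and a difference of 1 is a doubling.

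Cyclic AMP is made from ATP by adenylyl cyclases, most of which are turned on or off by G proteins coupled to receptors for neurotransmitters and peptides. Cyclic GMP is made by the soluble guanylyl cyclase, a heterodimer of an alpha and a beta subunit that nitric oxide activates, and by receptor guanylyl cyclases, some of which bind natriuretic peptides. Phosphodiesterases end both signals by hydrolysing the cyclic nucleotide, and their families differ in whether they prefer cyclic AMP, cyclic GMP or either.

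The promoters of 4 genes that the comparisons below turn on are shown first. Gucy1a1 and Gucy1b1 code for the alpha and beta subunits of one enzyme, and Pde7b and Pde4b code for phosphodiesterases specific for cyclic AMP. Each run holds the 250 bases before and the 50 bases after an annotated start in RefSeq (GRCm38.p6), read 5′ to 3′ along the gene's strand. Capitals mark TGACG, or its reverse complement, the core of the element that cyclic AMP responsive transcription factors bind.
Gucy1a1 promoter, chr3:82145601-82145900, minus strand: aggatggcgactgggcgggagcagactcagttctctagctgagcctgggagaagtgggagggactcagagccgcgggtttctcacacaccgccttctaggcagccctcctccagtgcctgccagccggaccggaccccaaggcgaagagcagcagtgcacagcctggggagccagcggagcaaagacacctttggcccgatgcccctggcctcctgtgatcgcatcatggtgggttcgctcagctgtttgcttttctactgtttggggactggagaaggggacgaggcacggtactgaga
Gucy1b1 promoter, chr3:82074662-82074961, minus strand: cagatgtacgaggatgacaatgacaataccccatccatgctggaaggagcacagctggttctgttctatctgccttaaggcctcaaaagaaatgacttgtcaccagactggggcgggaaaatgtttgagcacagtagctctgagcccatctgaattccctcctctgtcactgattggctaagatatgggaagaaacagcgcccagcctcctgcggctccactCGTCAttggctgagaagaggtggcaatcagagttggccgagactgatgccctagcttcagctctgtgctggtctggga
Pde7b promoter, chr10:20548279-20548578, minus strand: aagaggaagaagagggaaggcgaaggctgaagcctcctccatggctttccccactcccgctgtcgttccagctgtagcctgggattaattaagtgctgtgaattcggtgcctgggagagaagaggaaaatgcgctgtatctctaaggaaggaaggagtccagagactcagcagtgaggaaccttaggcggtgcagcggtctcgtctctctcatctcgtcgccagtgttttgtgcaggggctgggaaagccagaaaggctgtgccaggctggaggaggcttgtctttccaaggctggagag
Pde4b promoter, chr4:102421305-102421604, plus strand: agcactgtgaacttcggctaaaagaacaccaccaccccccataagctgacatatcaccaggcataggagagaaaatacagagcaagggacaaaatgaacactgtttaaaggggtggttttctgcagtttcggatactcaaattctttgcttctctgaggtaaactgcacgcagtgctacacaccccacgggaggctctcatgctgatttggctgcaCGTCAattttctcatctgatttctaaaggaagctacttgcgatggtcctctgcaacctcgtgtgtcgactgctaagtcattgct
The Gucy1b1 and Pde4b runs each hold the motif on the reverse strand, and the Gucy1a1 and Pde7b runs hold none. The table has 4 promoters for Pde4b, of which the other 3 hold no match, and 2 for Gucy1a1, neither with a match. Promoters were found for 33 of the 43 genes, 56 promoters in all. TGACG on either strand stood in 13 of these 56 (23.2%), against 20.8% of all 32851 promoters of the same length. The palindrome TGACGTCA, which contains it on both strands, was in 0 of the 56 promoters and in 1.79% of all. A match is only a stretch of letters, and no match says nothing about the factors.

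Lactating maternal and virgin LS differed in few of the 43 genes that the rule kept. Gucy1a1, the alpha 1 subunit of soluble guanylyl cyclase, fell in maternal mice and was the only 1 of the 43 genes called, which means a limma adjusted p under 0.25, the threshold used in the study. The study's own analysis listed Pde4b and an alpha subunit of soluble guanylyl cyclase (Gucy1a3 there) among its most significant genes, both lower in maternal mice. Their adjusted p in the study were smaller than those of Pde4b and Gucy1a1 in the fit made here. The study also reported an enriched cluster of genes for cyclic nucleotide synthesis, most of them lower in maternal mice. That cluster was drawn from genes past the study's threshold, whereas the 43 genes were taken by symbol. In the fit made here, called genes made up 1.42% of all genes in this comparison. At an unadjusted p under 0.05 there were 6 genes, namely Gucy1a1, Pde7b, Pde4b, Npr3 and Gucy1b1 with lower and Adcy6 with higher maternal means. This is 14.0% of the 43 genes, beside 9.77% of all genes. The 6 maternal and 6 virgin arrays did not overlap at all for Gucy1a1, Pde7b, Adcy6 and Pde4b, or 9.30% of the 43, beside 0.988% of all genes. Over the 43 genes the means were near equal, with 22 genes higher, 20 lower and 1 at 0. The median log2 difference was 0.002 over the 43 genes and 0 over all genes, and 33 of the 43 lay within 0.1 of 0.

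No gene of the family was called when pups removed mice were set against either of the other groups. Between maternal and pups removed mice 0 of the 43 genes were called in limma, with 5 at an unadjusted p under 0.05 (Pde4b, Pde6d, Pde5a, Pde7b and Gucy1a1), each with a lower maternal mean. That is 11.6% of the 43 genes, against 9.91% of all genes, and 0.0301% of all genes were called. Between pups removed and virgin mice 0 were called in limma, with 1 at an unadjusted p under 0.05 (Adcy6). That is 2.33%, against 4.95% of all genes, and 0.0451% of all genes were called. No gene of the 43 separated the arrays fully in either of these comparisons, where 0.637% and 0.196% of all genes did. Maternal arrays enter both maternal comparisons and virgin arrays enter both virgin comparisons, so agreement between comparisons is partly built in.

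**Figure D1:**
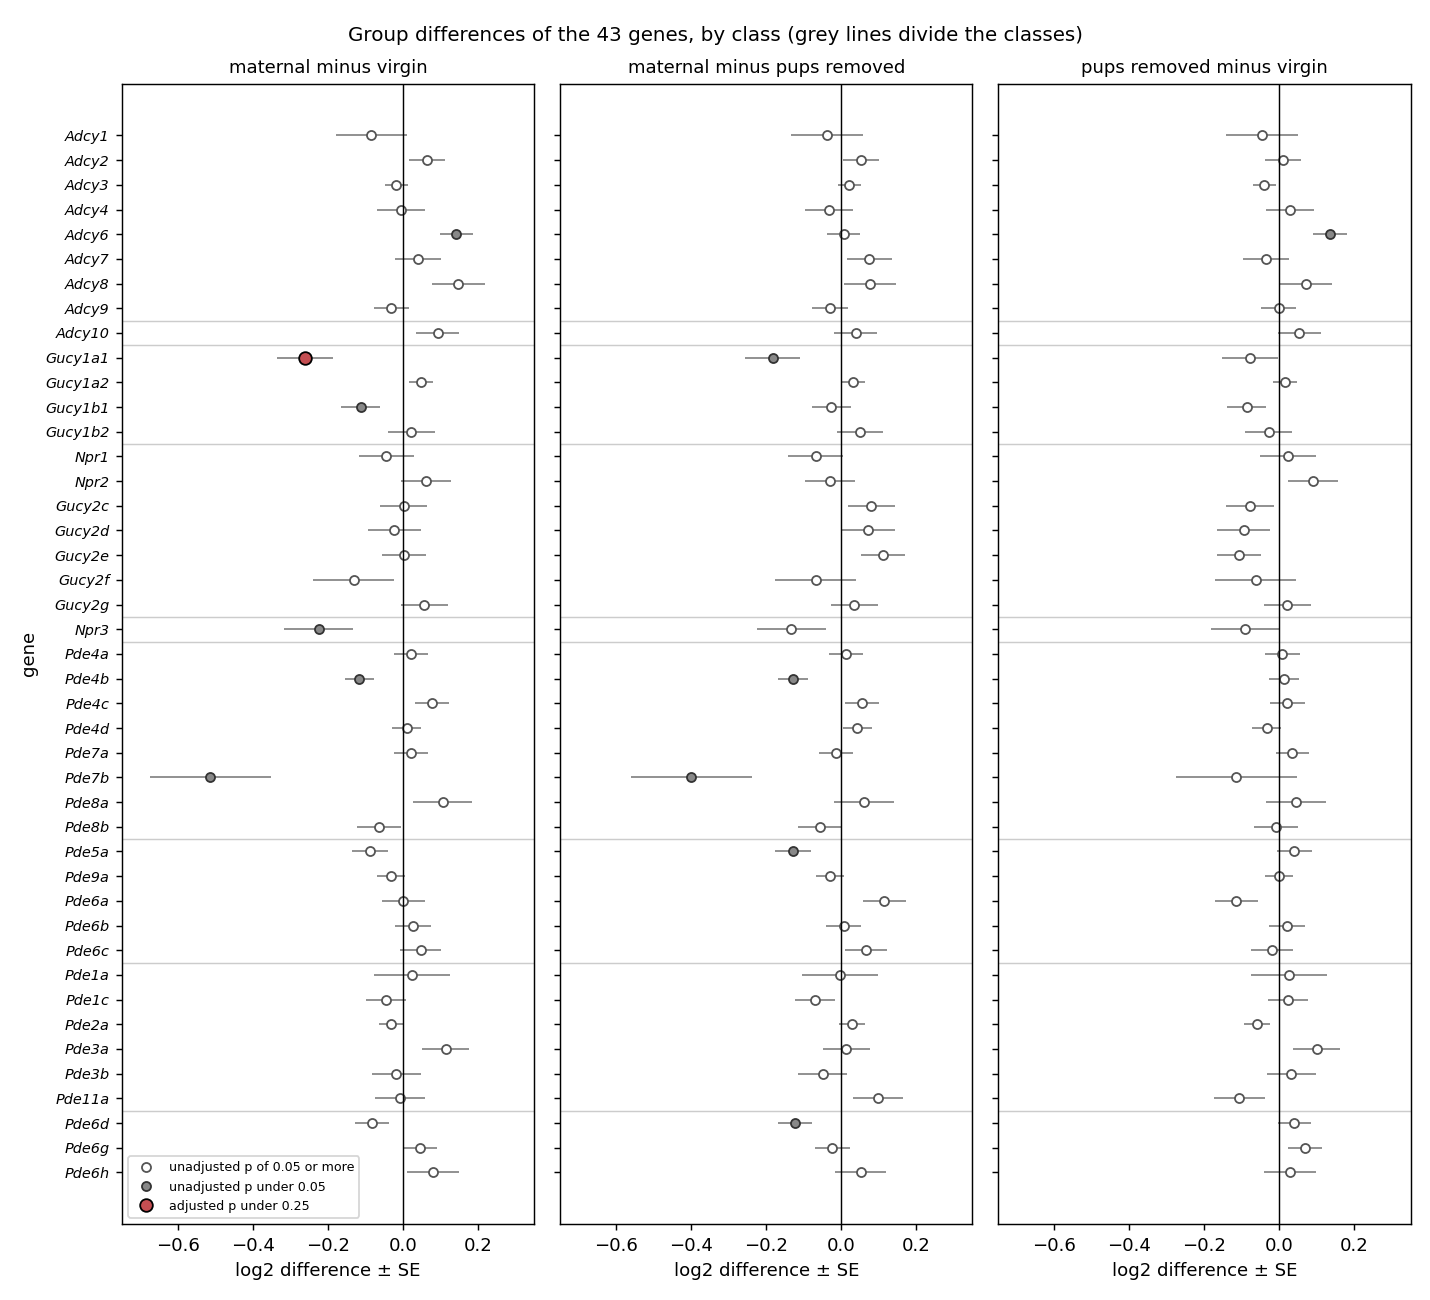
Log2 difference (points) with its limma SE (bars) of the 43 genes, listed by class on the vertical axis, in the 3 comparisons. The points crowd around 0, the red point is Gucy1a1, called in maternal against virgin mice at -0.26, and Pde7b lies farthest out at -0.52.

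Among the soluble guanylyl cyclase subunits, Gucy1a1 signal in virgin mice ran from 9.42 to 9.52 with a median of 9.46. In maternal mice it ran from 9.04 to 9.30 with a median of 9.21, so every maternal array lay below every virgin array. The pups removed mice gave 9.10, 9.48, 9.51, 9.13, 9.51 and 9.57 for replicates 1 to 6. Replicates 1 and 4 were thus at maternal levels and the other 4 at or above the level of most virgin mice. Maternal minus virgin was -0.26 (SE 0.07, limma adjusted p = 0.215), so the maternal mean was 0.834 times the virgin level. Maternal minus pups removed was -0.18 (SE 0.07, limma adjusted p = 0.501) and pups removed minus virgin -0.08 (SE 0.07, limma adjusted p = 0.844). In bulk tissue, fewer cells of a type and less RNA per cell cannot be told apart.

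The call for Gucy1a1 was lost when any 1 of virgin replicates 2, 3, 4 and 5 or maternal replicates 2, 3, 4, 5 and 6 was left out. Over the 18 fits without 1 array the difference stayed between -0.28 and -0.23, with limma adjusted p between 0.166 and 0.406.

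Gucy1b1, the beta 1 subunit that pairs with the alpha subunits to form the active enzyme, ran from 10.20 to 10.43 (median 10.375) in virgin mice and from 10.11 to 10.32 (median 10.245) in maternal mice. Pups removed mice ran from 10.13 to 10.34 (median 10.285), with the lowest values again in replicates 1 and 4. The groups overlapped, and maternal minus virgin was -0.11 (SE 0.05, limma adjusted p = 0.467). Gucy1a2, the alpha 2 subunit, and Gucy1b2, a beta subunit, did not share this direction. Their maternal minus virgin differences were 0.05 and 0.02, with limma unadjusted p of 0.162 for Gucy1a2. Gucy1a2 had one of the smallest spreads between arrays of a group (pooled SD 0.0446), and its 95% interval for the same difference ran from -0.02 to 0.11.

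Among the adenylyl cyclases that the rule kept, Adcy6 was the gene with an unadjusted limma p under 0.05, in both maternal and pups removed mice against virgin mice. The left out Adcy5 stood at -0.30 in maternal minus virgin (limma adjusted p = 0.212). Adcy6, a cyclase inhibited by calcium, ran from 8.73 to 8.95 (median 8.885) in virgin, from 8.97 to 9.04 (median 8.99) in maternal and from 8.91 to 9.13 (median 8.97) in pups removed mice. Every maternal array was above every virgin array, though the nearest were only 8.95 and 8.97, and pups removed arrays straddled that edge. Maternal minus virgin was 0.14 (SE 0.04, limma adjusted p = 0.268), just short of the threshold. Pups removed minus virgin was 0.14 too (SE 0.04, limma adjusted p = 0.387). Maternal and pups removed mice differed by 0.01, with a 95% interval from -0.09 to 0.10.

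Adcy8, which calcium and calmodulin stimulate, had the highest maternal minus virgin difference of the 43 genes, 0.15 (SE 0.07, limma adjusted p = 0.486). Its virgin arrays lay between 8.33 and 8.45, and maternal replicates 4, 5 and 6 at 8.59 to 8.71 stood well above them while replicates 1, 2 and 3 lay close to them at 8.36 to 8.46. The other transmembrane cyclases, Adcy1, Adcy2, Adcy3, Adcy4, Adcy7 and Adcy9, had maternal minus virgin differences from -0.09 to 0.06. Adcy1 is also a calcium and calmodulin stimulated form, and Adcy3 is the cyclase of olfactory neurons and neuronal cilia. Adcy10, the soluble cyclase that bicarbonate activates, was at 0.09, with an SE of 0.06. None of these genes was called in any comparison.

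**Figure D2:**
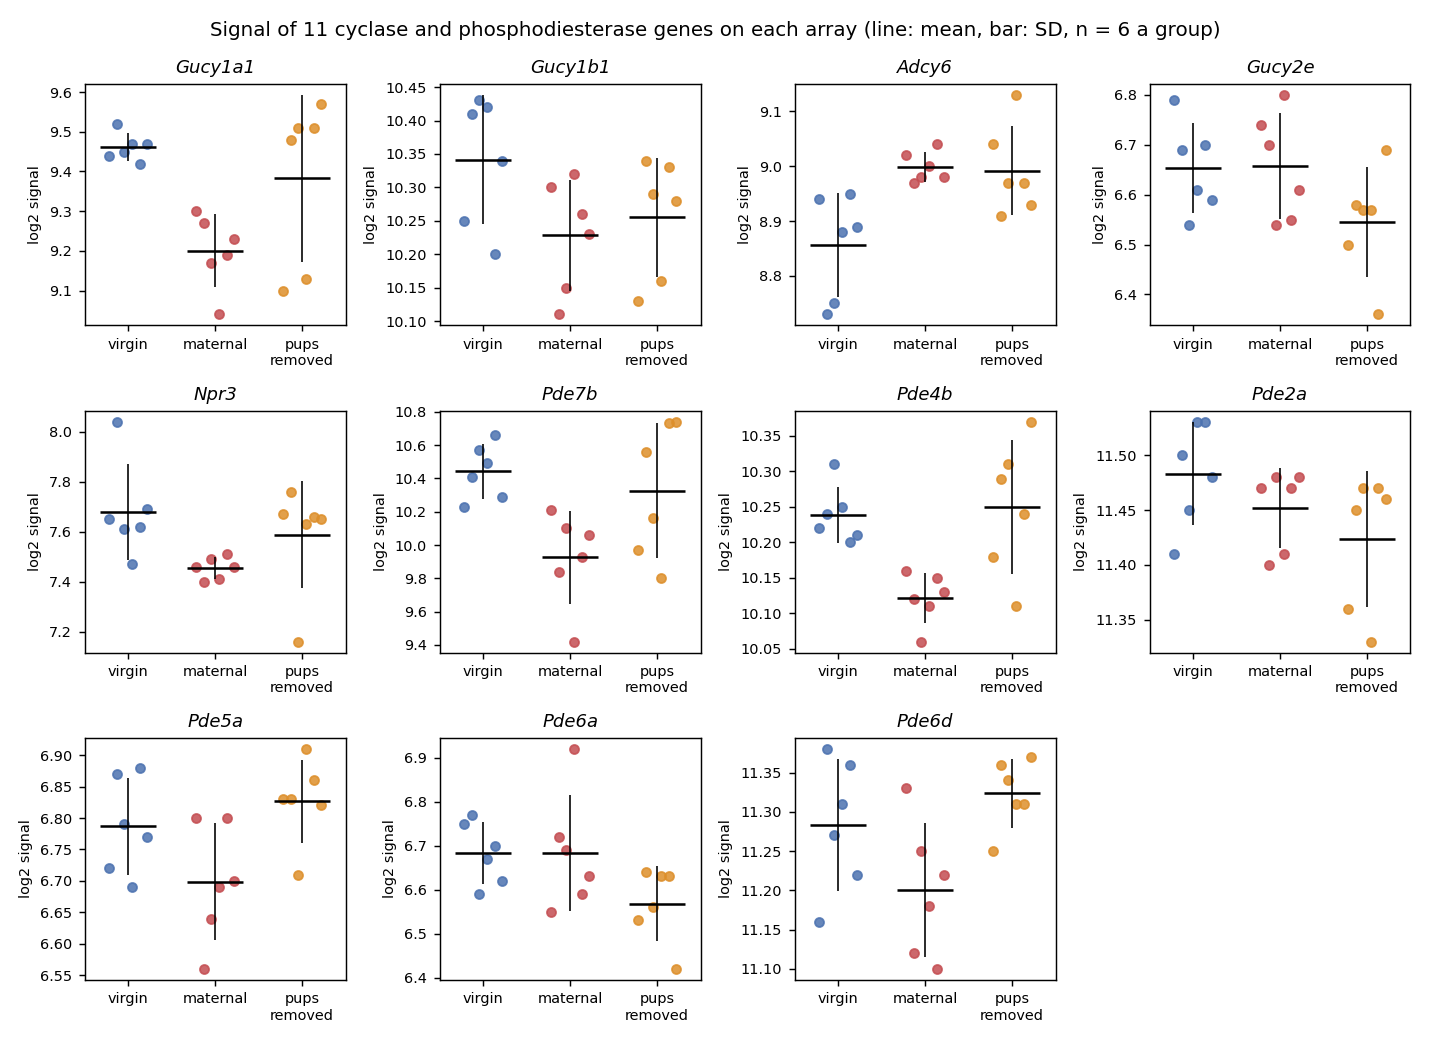
Log2 signal on the vertical axis for each array (points) of the 3 groups (horizontal axis), with the group mean (line) and SD (bar, n = 6), for the 11 genes named by the selection rule. Gucy1a1, Pde7b and Pde4b have their maternal points below all virgin points, Adcy6 has them above, and Gucy1a1 in pups removed mice forms 2 sets of points.

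Among the natriuretic peptide receptors and other receptor guanylyl cyclases, the clearance receptor had the largest difference between maternal and virgin mice. Npr3, which binds and removes natriuretic peptides and has no cyclase domain, ran from 7.47 to 8.04 (median 7.635) in virgin mice and from 7.40 to 7.51 (median 7.46) in maternal mice. Pups removed mice ran from 7.16 to 7.76 (median 7.655). Maternal arrays were tightly grouped and lay below 5 of the 6 virgin arrays. Maternal minus virgin was -0.23 (SE 0.09, limma adjusted p = 0.403), and it was called only in the fit without pups removed replicate 3 (limma adjusted p = 0.244), the array with the value of 7.16. Without any 1 array the difference ran from -0.27 to -0.15.

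Npr1 and Npr2, the cyclase receptors for atrial and C-type natriuretic peptides, had maternal minus virgin differences of -0.05 and 0.06. The sensory and gut forms are Gucy2c, the guanylin receptor, Gucy2d of olfactory neurons, Gucy2e and Gucy2f of photoreceptors, and Gucy2g. In maternal against virgin mice these 5 ran from -0.13 (Gucy2f) to 0.06 (Gucy2g). Gucy2e had the smallest p of this class in pups removed against virgin mice. Its pups removed arrays ran from 6.36 to 6.69 (median 6.57), its virgin arrays from 6.54 to 6.79 (median 6.65) and its maternal arrays from 6.54 to 6.80 (median 6.655). The groups overlapped, and pups removed minus virgin was -0.11 (SE 0.06, limma adjusted p = 0.685).

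The phosphodiesterases specific for cyclic AMP hold the largest difference of the 43 genes. Pde7b, an enzyme known for its high expression in striatum, ran from 10.23 to 10.66 (median 10.45) in virgin mice and from 9.42 to 10.21 (median 9.995) in maternal mice. The pups removed mice gave 9.97, 10.56, 10.16, 9.80, 10.73 and 10.74 for replicates 1 to 6. Maternal and virgin arrays did not overlap, with nearest values of 10.21 and 10.23, and pups removed replicates 1, 3 and 4 lay within the maternal range. Maternal minus virgin was -0.52 (SE 0.16, limma adjusted p = 0.265), or 0.700 times the virgin level. Maternal minus pups removed was -0.40 (SE 0.16, limma adjusted p = 0.499). Pde7b also varied most between arrays of a group, with a pooled SD of 0.30, against a median of 0.101 over the 43 genes and a lowest value of 0.0407 for Adcy3.

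Pde4b, one of the enzymes that the inhibitor rolipram blocks, had much smaller but tighter differences. It ran from 10.20 to 10.31 (median 10.23) in virgin, from 10.06 to 10.16 (median 10.125) in maternal and from 10.11 to 10.37 (median 10.265) in pups removed mice. Each maternal array was below each virgin array, and 1 pups removed array (replicate 4, 10.11) lay within the maternal range. Maternal minus virgin was -0.12 (SE 0.04, limma adjusted p = 0.301). Maternal minus pups removed was -0.13 (SE 0.04, limma adjusted p = 0.381), the smallest p of the 43 genes in that comparison. The related Pde4a, Pde4c and Pde4d stood at 0.02, 0.08 and 0.01 in maternal minus virgin, each with the opposite sign to Pde4b. Pde7a, the close relative of Pde7b, was at 0.02 with a 95% interval that includes 0, and the high affinity enzymes Pde8a and Pde8b were at 0.11 and -0.07.

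Leaving out pups removed replicate 4 changed the comparison of maternal with pups removed mice from 0 to 3 called genes. They were Gucy1a1 (difference -0.24), Pde4b (-0.16) and Pde7b (-0.51), with limma adjusted p of 0.233, 0.181 and 0.237. No other array had this effect when it was left out. The same omission took the calls between maternal and virgin mice from 1 to 4, with Adcy6, Pde4b and Pde7b added to Gucy1a1. It raised the calls over all genes as well, from 0.0301% to 2.40% in maternal against pups removed mice and from 1.42% to 2.02% in maternal against virgin mice.

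Of the phosphodiesterases that prefer cyclic GMP, Pde5a, the target of sildenafil, ran from 6.56 to 6.80 (median 6.695) in maternal and from 6.71 to 6.91 (median 6.83) in pups removed mice. Virgin mice ran from 6.69 to 6.88 (median 6.78), and all 3 ranges overlapped. Maternal minus pups removed was -0.13 (SE 0.05, limma adjusted p = 0.459). Pde9a, a high affinity cyclic GMP enzyme of brain, was at -0.03 in both maternal comparisons. The photoreceptor catalytic subunits Pde6a, Pde6b and Pde6c were at 0, 0.03 and 0.05 in maternal minus virgin. Pde6a, the rod alpha subunit, ran from 6.42 to 6.64 (median 6.595) in pups removed, from 6.59 to 6.77 (median 6.685) in virgin and from 6.55 to 6.92 (median 6.66) in maternal mice. Its pups removed minus virgin difference was -0.12 (SE 0.06, limma adjusted p = 0.638).

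Pde6d, named for the photoreceptor enzyme but best known as a chaperone of prenylated proteins, ran from 11.10 to 11.33 (median 11.20) in maternal and from 11.25 to 11.37 (median 11.325) in pups removed mice. In virgin mice it ran from 11.16 to 11.38 (median 11.29). Maternal replicates 1 and 3 reached the pups removed range, and the maternal minus pups removed difference was -0.12 (SE 0.04, limma adjusted p = 0.449). The inhibitory subunits Pde6g and Pde6h were at -0.02 and 0.05 in the same comparison.

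The phosphodiesterases that act on both nucleotides and that the rule kept held no gene with an unadjusted limma p under 0.05 in any comparison. The left out Pde1b and Pde10a, of the same class, stood at -0.445 and -0.63 in maternal minus virgin (limma adjusted p = 0.190 and 0.251). Pde1b was thus under the threshold of 0.25 there. In maternal minus pups removed they stood at -0.327 and -0.467 (limma unadjusted p = 0.0125 and 0.0264). Neither had an unadjusted limma p under 0.05 in pups removed minus virgin. Pde2a, an enzyme that cyclic GMP stimulates, ran from 11.41 to 11.53 (median 11.49) in virgin, from 11.40 to 11.48 (median 11.47) in maternal and from 11.33 to 11.47 (median 11.455) in pups removed mice. Its groups overlapped, with a pups removed minus virgin difference of -0.06 (SE 0.03, limma adjusted p = 0.705). Pde1a and Pde1c, which calcium and calmodulin stimulate, were at 0.02 and -0.05 in maternal minus virgin. Pde3a and Pde3b, which cyclic GMP inhibits, were at 0.11 and -0.02, and Pde11a was at -0.01.

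Several of these genes are also expressed in the striatum, which borders the LS, so marker lists were read beside them. The mean of 18 measured markers of striatal medium spiny neurons (of 20 listed, with no cyclase or phosphodiesterase among them) ran from 9.81 to 10.02 in virgin and from 9.18 to 9.70 in maternal mice, with no overlap. In pups removed mice it ran from 9.36 to 10.14, and replicates 1 and 4 were the lowest at 9.58 and 9.36. All 18 markers had a lower maternal than virgin mean, and 4 of them were called (Bcl11b, Rxrg, Rarb and Foxp1). That is 22.2% of the 18, beside 1.42% of all genes. At an unadjusted limma p under 0.05 there were 16 (88.9%, beside 9.77% of all genes). All 18 also had a lower maternal than pups removed mean, with 0 called in limma. In that comparison 9 (50%, beside 9.91% of all genes) had an unadjusted limma p under 0.05. Array signal has no true 0, so no marker could be called absent. The mean of 13 markers of lateral septal neurons ran from 10.31 to 10.43 in virgin, from 10.32 to 10.42 in maternal and from 10.25 to 10.43 in pups removed mice. With no other tissue measured, this level cannot show which tissue was taken. In maternal against virgin mice 4 of these 13 markers (30.8%, beside 9.77% of all genes) had an unadjusted limma p under 0.05, 2 higher and 2 lower. Only 1 of the 13 (7.69%) was called, with a lower maternal mean. The mean of 10 markers of neural stem cells and neuroblasts ran from 8.90 to 9.04 in virgin, from 8.72 to 8.87 in maternal and from 8.80 to 8.99 in pups removed mice, again without overlap of maternal and virgin arrays. Of these 10 markers 5 (50%) were called in maternal against virgin mice, each with a lower maternal mean. The marker lists were chosen with earlier results of these data known. Bcl11b, Rxrg, Rarb, Egfr and Nr2e1 are among the study's own most significant genes, so the shares called are no independent test. The choroid plexus mean varied within every group, from 7.72 to 10.14 over all arrays. All 7 choroid plexus markers had lower maternal means in both maternal comparisons (median difference -0.52 in each), and 0 were called in limma or had an unadjusted p under 0.05. All 6 ependymal markers were likewise at lower maternal means, with medians of -0.32 against virgin and -0.37 against pups removed mice. Of these, 0 were called in limma, and 3 and 4 had an unadjusted p under 0.05 (50% and 66.7%, beside 9.77% and 9.91% of all genes). The ependymal mean ran from 8.08 to 8.65 in virgin, from 7.86 to 8.45 in maternal and from 7.97 to 8.68 in pups removed mice. The part of stem cell, choroid plexus and ependymal tissue in the results was not tested.

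Pde7b tracked the striatal markers most closely. Over the 18 arrays, after each group mean was subtracted, Pde7b had a Pearson r of 0.97 and a Spearman rho of 0.96 with the striatal mean (permutation test, adjusted p = 0.00012 for each, from the smallest p that 100000 resamples can give). For Gucy1a1 r was 0.83 and rho 0.66 (permutation test, adjusted p = 0.00018 and 0.0155). Pde2a had r 0.74 and rho 0.66 (permutation test, adjusted p = 0.00132 and 0.0155), and Pde4b r 0.64 and rho 0.55 (permutation test, adjusted p = 0.0131 and 0.0430). Adcy6 ran the other way, with r -0.55 and rho -0.55 (permutation test, adjusted p = 0.0417 and 0.0430). These are 5 of 12 relations computed, two-sided, with adjustment over the 12.

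Without the 2 arrays farthest from the median striatal mean, r was 0.95 for Pde7b and 0.72 for Gucy1a1, both past an adjusted p of 0.05. It was 0.60 for Pde2a, 0.48 for Pde4b and -0.43 for Adcy6, which no longer passed over 16 arrays. Within virgin, maternal and pups removed mice, Pde7b had an r of 0.89, 0.96 and 0.99, and only the last passed (exact permutation test, adjusted p = 0.0167). For Gucy1a1 the r within the groups was -0.03, 0.84 and 0.89, so the virgin arrays showed no such relation over their narrow range. Over all arrays the other genes named by the rule did not pass, with r from -0.45 (Pde6a) to 0.44 (Pde6d), and Npr3 was at 0.09 and Pde5a at -0.06. The Spearman rho of Pde6d, 0.59, had an adjusted p of 0.0342 by the same permutation test. The paired subunits Gucy1a1 and Gucy1b1 had an r of 0.47 with each other and a rho of 0.36 (permutation test, adjusted p = 0.10 and 0.237). Within virgin, maternal and pups removed mice their r was 0.69, -0.36 and 0.93, and none passed.

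**Figure D3:**
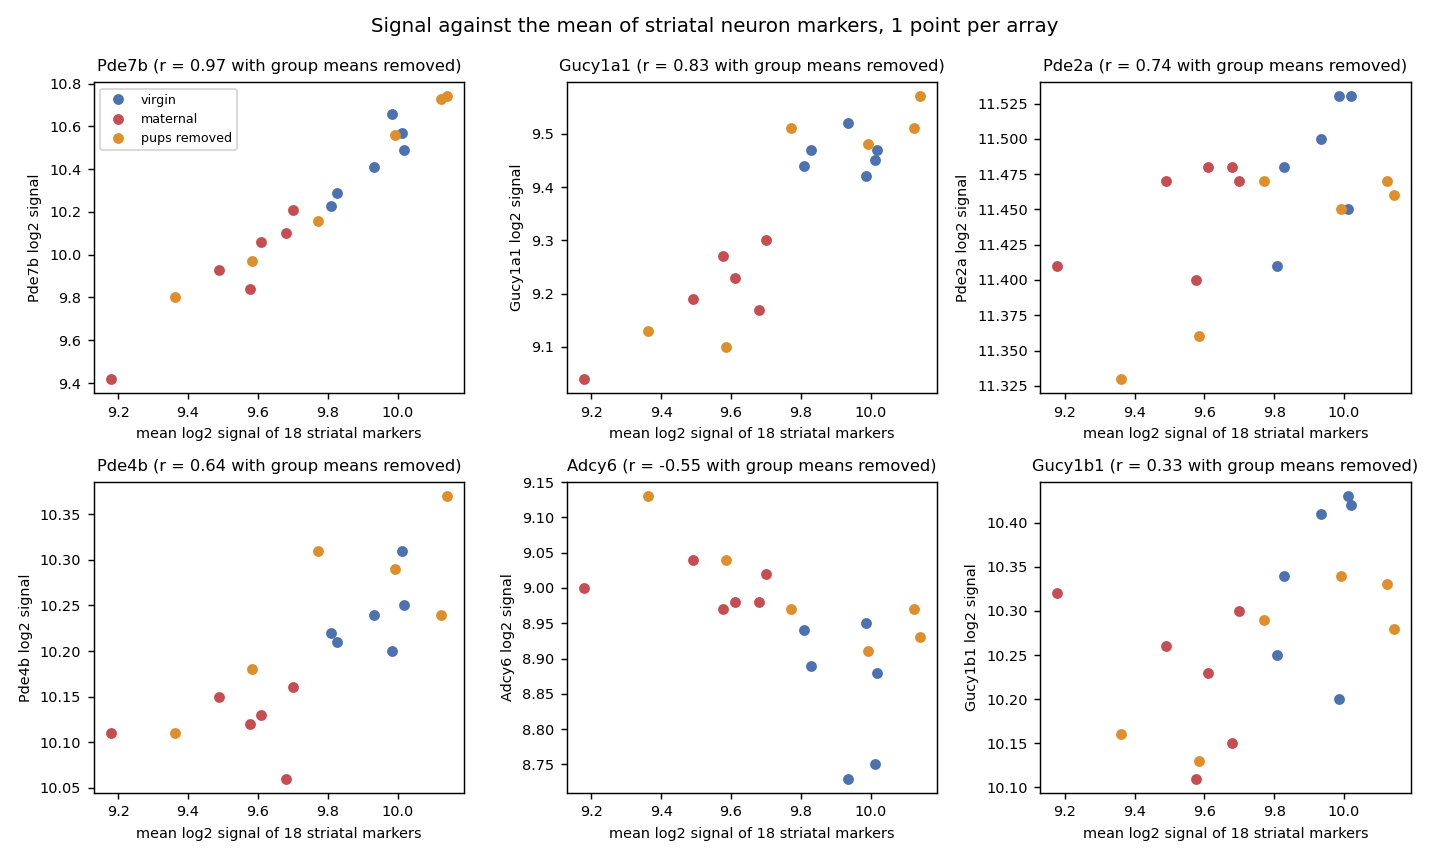
Log2 signal of 6 genes (vertical axes) against the mean log2 signal of 18 striatal markers (horizontal axis), 1 point per array, coloured by group, as measured and without subtraction of group means. Pde7b forms a single rising line with a maternal array at its foot and pups removed arrays, above the virgin arrays, at its top. The 2 pups removed arrays with the lowest striatal mean sit with the maternal arrays for Pde7b and Gucy1a1.

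With the striatal mean added to the limma model as a covariate, 0 of the 43 genes were called in any comparison. At an unadjusted p under 0.05 this fit had 0 genes in maternal against virgin mice, 2 in maternal against pups removed mice (Pde5a and Pde2a) and 2 in pups removed against virgin mice (Adcy6 and Pde6a). Of all genes, 0%, 0.00502% and 0.0602% were called in this fit in these comparisons, and 4.95%, 4.92% and 5.73% had an unadjusted p under 0.05. The maternal minus virgin difference of Pde7b went from -0.52 to 0.00475 (SE 0.06, limma adjusted p = 0.994), and that of Gucy1a1 from -0.26 to -0.06 (SE 0.06, limma adjusted p = 0.948). In the same comparison Adcy6 went from 0.14 to 0.07, Pde4b from -0.12 to -0.05 and Adcy8 from 0.15 to -0.01. Pde2a, the other gene that tracked the striatal mean, turned from -0.03 to 0.03 there and went from 0.03 to 0.08 in maternal minus pups removed. Npr3 stayed at -0.20, with an SE of 0.12, and Pde5a at -0.14 in maternal minus pups removed, with an SE of 0.06. The covariate itself differed between the groups, so a covariate fit takes out any change of a gene that runs parallel to it, and the share that is due to dissected striatal tissue cannot be told apart from a change within cells.

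**Figure D4:**
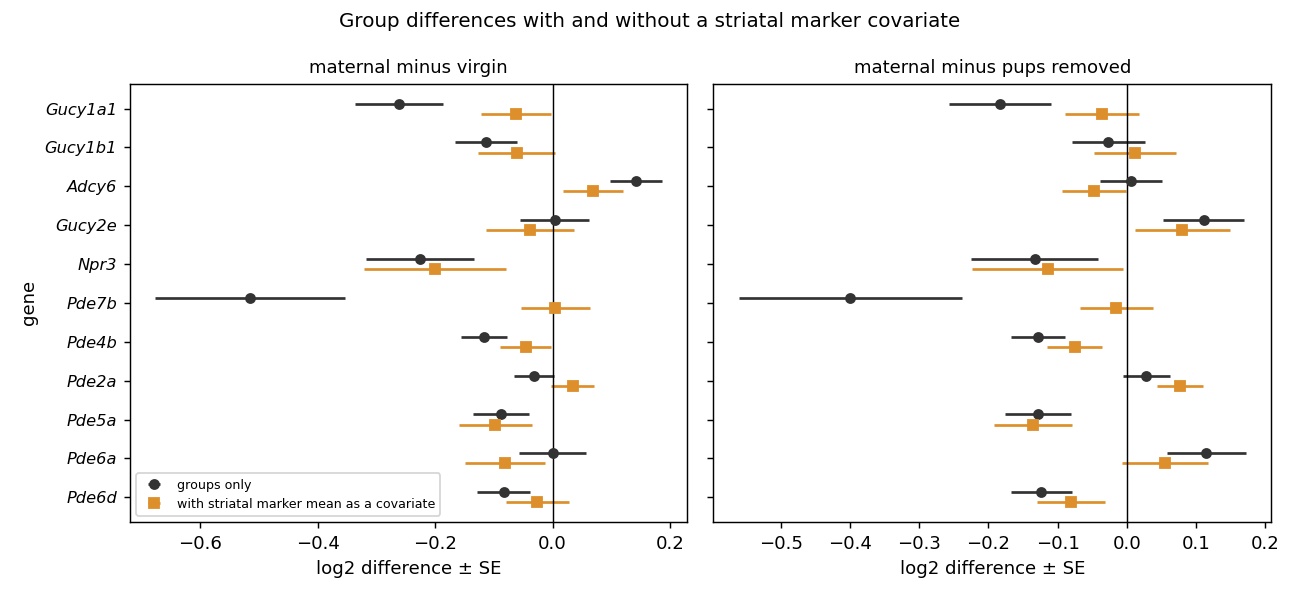
Log2 difference (points) with limma SE (bars) for the 11 named genes, from the model with groups only (black circles) and with the striatal marker mean as a covariate (orange squares). Pde7b and Gucy1a1 move toward 0 in both maternal comparisons, while Npr3 and Pde5a keep their place.

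The proteins that act before and after the cyclic nucleotides gave as few calls. Of 76 listed genes, 68 were measured, and 1 (1.47%) was called in maternal against virgin mice, beside 1.42% of all genes. In limma 0 were called in the other comparisons, with 2 at an unadjusted p under 0.05 in maternal against pups removed and 5 in pups removed against virgin mice (2.94% and 7.35%, beside 9.91% and 4.95% of all genes). In maternal against virgin mice 10 (14.7%) had an unadjusted limma p under 0.05, beside 9.77% of all genes, and the median log2 difference was -0.01, with 33 higher and 35 lower. The called gene was Pkig, an inhibitor of protein kinase A. Its signal ran from 8.29 to 8.58 (median 8.495) in virgin, from 8.23 to 8.41 (median 8.305) in maternal and from 8.29 to 8.44 (median 8.365) in pups removed mice. The maternal and virgin ranges overlapped at virgin replicates 1 and 3, and the difference was -0.17 (SE 0.05, limma adjusted p = 0.220).

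Upstream of the cyclases, the smallest unadjusted p in each list belonged to Gnaz, an inhibitory G protein alpha subunit (maternal minus virgin -0.09), and Vipr2, a receptor for vasoactive intestinal peptide (pups removed minus virgin -0.15). Nppc, the C-type natriuretic peptide that Npr2 and Npr3 bind, stood at -0.12 in maternal minus virgin (SE 0.05, limma adjusted p = 0.415). Downstream, Atf1, a transcription factor that cyclic AMP signals activate, stood at -0.19 in maternal minus pups removed (SE 0.05, limma adjusted p = 0.310). The kinase anchor Akap13 was at 0.13 and the cyclic GMP kinase Prkg1 at 0.09 in pups removed minus virgin. Cngb3, a cyclic nucleotide gated channel subunit, was at 0.13 in maternal minus pups removed. The exporter Abcc4, the cyclase associated Cap2 and the exchange factor Rapgef2 were at -0.12, -0.11 and -0.05 in maternal minus virgin. None of these 10 genes was called.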

How the data were processed

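The LS of 18 mice was profiled, 1 array each. The authors summarized and normalized the scans with Affymetrix Power Tools 1.12.0 (the PLIER algorithm, with background corrected in bins of GC content) and deposited log2 values, rounded to 2 decimals, for 35557 probesets. A method of normalization between arrays is not given in the sources used here. By the platform annotation 21789 probesets name 1 gene, 1621 several and 12147 none. Array medians lay between 7.61 and 7.70, and no pair of arrays correlated above 0.995. Arrays have no read depth, so the number of arrays limits the precision.

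A model of 3 group means was fitted to all probesets with limma 3.58.1 in R 4.3.3 (prior degrees of freedom 2.62), with Benjamini-Hochberg adjustment over all 35557 probesets and a threshold of 0.25 as in the study. SE is that of the limma difference, SD that between arrays, and intervals are 95%. Simulated data with known differences were used to check the model. Relations across arrays used permutation tests in scipy 1.17.1, exact within groups and with 100000 resamples otherwise. The labels and the value table give no scan dates or batches. The genes, marker and pathway lists, and the rule for named genes (called genes, the 5 smallest p in each comparison, and for each pathway list the called genes or else the smallest p) were chosen with earlier results of these data known, and Adcy8 was described in addition after its values were seen. Alternatives covered the threshold, quantile and median scaling, the arrays and probesets fitted, the prior, array weights, the replicate block, the mean of all probesets of a gene, a striatal covariate and each array left out. Promoters came from RefSeq (GRCm38.p6), and the build behind the array values was not used.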

Additional observations from a re-analysis of the deposited data

Results flagged for a closer look

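With 6 arrays a group, 7 of 129 tests of a gene within a group (5.43%) had 1 array whose gap to the nearest of the others was too wide a share of the group's range by Dixon's test, and chance gives about 1 in 20. Npr3 was 7.16 in pups removed replicate 3, below the other arrays at 7.63 to 7.76. Npr2 was 10.07 in pups removed replicate 4, above 9.59 to 9.76. Pde11a was 7.60 in virgin replicate 6, above 7.23 to 7.36, and 7.05 in pups removed replicate 1, below 7.23 to 7.32. Pde1a was 10.19 in virgin replicate 6, above 9.66 to 9.83. Pde3b was 7.91 in virgin replicate 1, below 8.05 to 8.13. Pde4d was 9.70 in maternal replicate 2, above 9.55 to 9.60. The causes were not tested.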

How the results depend on the processing

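The count of genes called between maternal and virgin mice, 1 with Gucy1a1, was 0 at a threshold of 0.05, with the replicate block and with the striatal covariate, under which the difference of Pde7b turned to 0.00475. It was 2 after quantile normalization, 3 with only the arrays of the 2 groups or only probesets of 1 gene, and 4 with a trend and robust prior or without probesets of a mean under the median (26 genes then tested), and it ranged from 0 to 4 without 1 array. It was 0 without virgin replicate 2, 3 or 4 or maternal replicate 2, 3, 4, 5 or 6, 4 without virgin replicate 6 or pups removed replicate 4, 3 without virgin replicate 1, and 2 without maternal replicate 1 or pups removed replicate 3 or 6. The calls gained were of Adcy6, Pde4b, Pde7b and, without pups removed replicate 3, Npr3. Of all genes, 1.42% were called in the main fit, and 0%, 0.787% and 0% with the threshold of 0.05, the block and the covariate. The share was 1.87% after quantile normalization, 1.18% with the arrays of the 2 groups and 2.13% with probesets of 1 gene. It was 2.15% with the trend and robust prior, 6.94% without probesets of a mean under the median and 0.0201% to 3.92% without 1 array. The causes were not tested. Between maternal and pups removed mice the count of 0 became 1 with array weights (Pde4b) and ranged from 0 to 3 without 1 array. There 2.53% of all genes were called with array weights, and from 0.00502% to 2.40% without 1 array. Between pups removed and virgin mice the count was 0 in all 29 alternatives. Of the 5 relations that passed, 2 passed without the 2 farthest arrays, 0 within virgin, 0 within maternal and 1 within pups removed mice, where 6 arrays are few. Same-numbered arrays did not deviate together (18 pairs, r from -0.248 to 0.0953, median -0.0246), so the numbers were not taken to pair the mice. The study prepared RNA in matched sets with 1 mouse of each group, and the labels do not tie the replicate numbers to these sets. With the replicate block Gucy1a1 was at -0.26 (limma adjusted p = 0.25 when rounded, and above the threshold).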
